A study of Sciaenops ocellatus with 36 samples.

Results

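This account compares red drum larvae exposed to slick oil with unexposed larvae of the source-oil series, both 72 h post fertilisation (hpf), and rests on 6 of the 36 samples of the study, 3 in each group. Red drum (Sciaenops ocellatus) is a marine fish of the Gulf of Mexico. Slick oil is crude from the Deepwater Horizon spill that had weathered at sea before it was collected from a surface slick, and source oil is a crude that had not weathered and stands in for the oil of the well. The slick-oil group is whole animals of 72 hpf, labelled whole embryo, kept in water with the slick oil at a labelled concentration of 2.50%, and the labels do not say what the percentage is of. The control group is whole animals of 72 hpf kept at a labelled 0 g/l in the series that tested source oil. Each library was made from 30 pooled animals, and the labels do not say whether the pools of a group came from separate tanks or spawns, so the p-values below measure the spread between these libraries, which may be technical. The 6 libraries were those of the table deposited for slick oil at 72 hpf. Its control columns carry the library names of the source-oil series and hold the same counts as that series' own controls. Oil and series therefore differ together in every value of the comparison, and the unexposed larvae of the slick series at 72 hpf were not analysed here. Further groups of 3 libraries give values beside it: source oil at 72 hpf (0.27%), slick oil at 48 hpf (2.50%), and the unexposed larvae of the slick series and of the source series at 48 hpf.

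Crude oil carries polycyclic aromatic hydrocarbons. Some of them bind the aryl hydrocarbon receptor (AHR), a transcription factor that then switches on enzymes such as CYP1A, which oxidise the hydrocarbons, and its own repressor, AHRR. Oxidised products and quinones call on glutathione, thioredoxin and peroxiredoxin systems, and in fish embryos exposed to crude oil the heart, the eye and the skull are the organs best known to be affected.

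The slick-oil libraries held 2675935 to 2707251 reads assigned to gene symbols, and the control libraries 2951219 to 3139105. Symbols are human ones, and reads of several fish paralogs may be merged under one of them. Levels are given as CPM, counts scaled to 1000000 reads per library, after TMM scaling of the 6 libraries, in the order of libraries 7, 8 and 9, and a gene is called at an adjusted p under 0.05 in edgeR's quasi-likelihood test. Of 8969 genes tested, 1673 were called (18.7%). They comprised 767 higher (8.55%) and 906 lower (10.1%) with slick oil, shares that are the background for the gene-list counts of this comparison. The median log2 fold change of all genes was 0.00933. Scaled by library size alone, the median became 0.207 and 2371 genes were called higher against 471 lower. The first principal component held 69.2% of the variance and set all 3 slick-oil libraries (11.2 to 12.4) apart from all 3 controls (-13.9 to -8.04). Markers of 13 organs and cell types were checked, and each list had at least 3 of 6 markers with reads in all 6 libraries. Among the defining markers at 0 reads in all 6 were OPN1SW and PDE6H of photoreceptors, MYH6 of the heart, TF of the liver, ACTA1 of skeletal muscle and HBA1 of red cells. Of 56338 distinct symbols, 10767 to 10817 had a read in each of these libraries. Whether a symbol at 0 had any fish gene matched to it is not given. Here and below, 0 reads therefore does not show that a gene was silent or not induced.

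Targets of the receptor rose, CYP1A1 and CYP1B1 most. CYP1A1, the enzyme that oxidises planar hydrocarbons, stood at 3022, 3286 and 3606 CPM in the slick-oil libraries, against 183, 239 and 380.3 CPM in the controls (log2 fold change 3.63, SE 0.16, adjusted p = 4.94e-17). The lowest slick-oil library lay far above the highest control, but separation of the groups was a condition for the largest rises named here. CYP1B1, a related oxidase, had 24.2, 31.7 and 31.3 CPM in the slick-oil libraries, against 3.17, 1.10 and 2.70 CPM in the controls (log2 fold change 3.61, SE 0.27, adjusted p = 9.41e-12). AHRR, the repressor that limits the receptor's signal, had 88.5, 88 and 94.9 CPM in the slick-oil libraries, against 11.3, 9.19 and 14.9 CPM in the controls (log2 fold change 2.93, SE 0.14, adjusted p = 4.6e-16). The exposed pools agreed closely with each other for AHRR and, relative to their mean, less closely for CYP1B1, which was close to its detection limit in controls. FOXQ1, a forkhead transcription factor known as a receptor target in zebrafish, had 136, 119 and 155 CPM in the slick-oil libraries, against 45.1, 42.6 and 56.5 CPM in the controls (log2 fold change 1.5, SE 0.11, adjusted p = 1.76e-11). AHR itself had 32.2, 23.8 and 26.4 CPM in the slick-oil libraries, against 19.4, 18.8 and 18.2 CPM in the controls, a small rise (log2 fold change 0.55, SE 0.16, adjusted p = 0.0166) that was not called without slick-oil library 7 (log2 fold change 0.415) or without control library 9 (0.518). Of 19 genes listed as targets and partners of the receptor, 12 were tested, 6 rose and none fell, with a median log2 fold change of 0.452. The other 6 tested genes were not called (log2 fold changes -0.362 to 0.506), and TIPARP had 0 reads in all 6 libraries.

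Further enzymes of foreign-compound metabolism rose. CYP3A4, a broad-range oxidase, averaged 116 ± 10.1 CPM in slick-oil larvae and 47.8 ± 4.36 CPM in controls (SD, n = 3 each; log2 fold change 1.28, SE 0.11, adjusted p = 1.21e-10). GSTO1, a glutathione transferase, averaged 92 ± 7.75 CPM in slick-oil larvae and 42.6 ± 2.73 CPM in controls (log2 fold change 1.11, adjusted p = 3.99e-09). The electron donor of the cytochromes P450, POR, was 0.40 higher on the log2 scale (adjusted p = 0.000568), and the export pump ABCC2 was 0.66 higher (adjusted p = 0.000495). Of 42 genes on this list 19 were tested, 6 rose and none fell (31.6% called, against 18.7% of all genes).

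**Figure D1:**
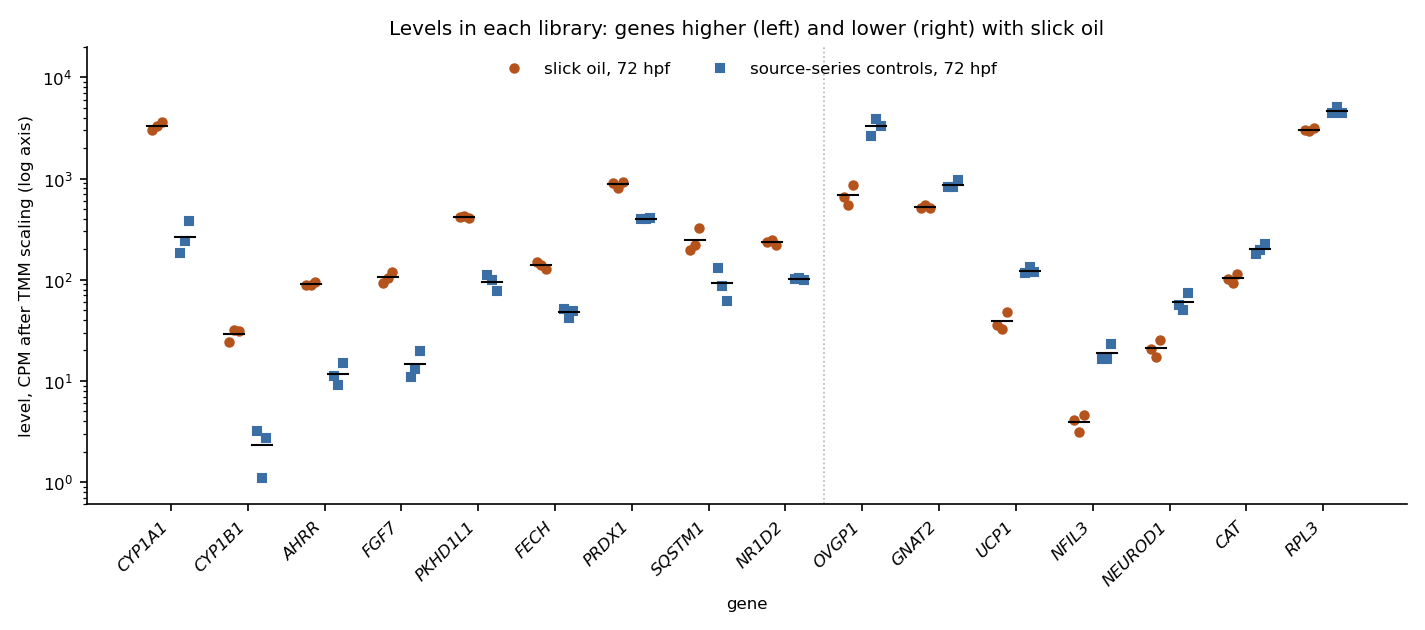
Level of 16 genes in each library, in CPM on a log axis; circles are slick-oil libraries, squares source-series controls, and bars the group means. CYP1A1 lies at 3022 to 3606 CPM with slick oil against 183 to 380 CPM in controls. The groups overlap for none of the 16 genes, which was a condition for naming some of them. They do not overlap for 33.5% of all genes tested.

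Genes of the antioxidant and thiol system rose as a group: 24 of 32 listed genes were tested, 15 rose, 2 fell, and the median log2 fold change was 0.584. PRDX1, a peroxiredoxin that reduces peroxides, had 903, 799 and 933 CPM in the slick-oil libraries, against 394, 396 and 405 CPM in the controls (log2 fold change 1.14, SE 0.088, adjusted p = 2.35e-11). SQSTM1, the p62 adaptor for selective autophagy and a target of the stress factor NRF2 in mammals, had 196, 219.7 and 321 CPM in the slick-oil libraries, against 129.7, 87.5 and 61.9 CPM in the controls. Its log2 fold change was 1.40 (SE 0.16, adjusted p = 6.05e-08), and relative to their mean the exposed pools differed among themselves more than for PRDX1. PGD, which makes NADPH, was 0.87 higher on the log2 scale (adjusted p = 3.99e-09), the thioredoxin reductase TXNRD3 0.80 (adjusted p = 7.82e-07) and GCLC, the catalytic subunit of the first enzyme of glutathione synthesis, 0.65 (adjusted p = 6.67e-05). Catalase, CAT, which breaks down hydrogen peroxide in peroxisomes, moved the other way, with 103, 92.8 and 115 CPM in the slick-oil libraries, against 178, 198 and 225 CPM in the controls (log2 fold change -0.96, SE 0.098, adjusted p = 9.47e-09). HMOX1 had 0 reads in all 6 libraries. SQRDL, the mitochondrial enzyme that oxidises sulfide, had 93, 84.2 and 76.3 CPM in the slick-oil libraries, against 31.4, 32 and 36.8 CPM in the controls (log2 fold change 1.34, SE 0.12, adjusted p = 4.07e-10).

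Heme synthesis rose at several steps. FECH, which inserts iron in the last step, had 150.1, 141 and 128 CPM in the slick-oil libraries, against 51.5, 42.3 and 48.7 CPM in the controls (log2 fold change 1.55, SE 0.10, adjusted p = 1.12e-12). ALAS1, the first and rate-limiting enzyme outside red cells, averaged 393 ± 40.4 CPM in slick-oil larvae and 233 ± 16.3 CPM in controls (log2 fold change 0.76, adjusted p = 1.17e-07). Its red-cell counterpart ALAS2 was 0.68 higher on the log2 scale (adjusted p = 7.18e-06) and UROD 0.56 higher (adjusted p = 0.000832). The globin HBE1 fell, with 24.2, 21 and 16.5 CPM in the slick-oil libraries, against 24.3, 57.7 and 45.6 CPM in the controls (log2 fold change -1.04, adjusted p = 0.000294); the lowest control, library 7, lay barely above the highest exposed library, and the call was lost in DESeq2. In all, 13 of 24 genes listed for heme and globins were tested, 4 rose and 1 fell (38.5% called, against 18.7% of all genes).

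Cholesterol synthesis showed one of the broadest rises. Of 31 listed genes 27 were tested, 18 rose and 1 fell, and the median log2 fold change was 0.57. MSMO1, a sterol demethylase, had 259.7, 229 and 141 CPM in the slick-oil libraries, against 83.9, 124 and 72.7 CPM in the controls (log2 fold change 1.17, SE 0.15, adjusted p = 7.38e-07). SC5D was 0.90 higher on the log2 scale (adjusted p = 2.97e-05). Squalene epoxidase, SQLE, had 10.7, 7.24 and 4.57 CPM in the slick-oil libraries, against 0.352, 1.10 and 0.676 CPM in the controls (log2 fold change 3.34, SE 0.49, adjusted p = 4.39e-06), so that the control values rest on a few reads each. DHCR7 and LSS rose as well (log2 fold changes 0.48 and 1.08). For each of these 5 genes library 9 was the lowest of the exposed pools, and the count of called sterol genes was 11 higher and 1 lower without slick-oil library 8, and 12 higher and 1 lower without control library 9.

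The mitochondrial electron chain split. The succinate dehydrogenase subunits SDHB and SDHA, the complex I subunit NDUFV1, cytochrome c1 (CYC1) and cytochrome c (CYCS) rose. SDHB had 2846, 2452 and 2519 CPM in the slick-oil libraries, against 1045, 1072 and 1139 CPM in the controls (log2 fold change 1.26, SE 0.095, adjusted p = 1.4e-11), and NDUFV1 had 3059, 2679 and 2988 CPM in the slick-oil libraries, against 1530, 1651 and 1809 CPM in the controls (log2 fold change 0.81, SE 0.097, adjusted p = 1.64e-07). SDHA, CYC1 and CYCS had log2 fold changes of 0.86, 0.72 and 0.64. Of 63 listed genes of the respiratory chain and ATP synthase, 45 were tested, and besides these 5 rises 20 genes fell, with log2 fold changes down to -0.843. With library-size scaling 9 genes rose and 6 fell, so the balance of the list turned with the scaling, and without slick-oil library 8 or control library 9 the falls were 10. UCP1, an uncoupling protein of the inner membrane, had 35.6, 32.8 and 48.5 CPM in the slick-oil libraries, against 118, 132 and 119.7 CPM in the controls (log2 fold change -1.66, SE 0.12, adjusted p = 4.07e-12). ADCK4, a kinase-like protein of coenzyme Q synthesis, had 152, 154 and 148 CPM in the slick-oil libraries, against 51.5, 45.6 and 44.3 CPM in the controls (log2 fold change 1.68, SE 0.099, adjusted p = 4.85e-14). None of the 15 genes encoded by the mitochondrial genome could be tested.

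Signalling and repair genes completed the large rises. FGF7, a fibroblast growth factor that acts on epithelia, had 93.7, 103 and 119.9 CPM in the slick-oil libraries, against 10.9, 13.2 and 19.6 CPM in the controls (log2 fold change 2.84, SE 0.15, adjusted p = 2.6e-15). NOTUM, a secreted enzyme that inactivates Wnt ligands, had 139.7, 158 and 154 CPM in the slick-oil libraries, against 59.2, 58.5 and 58.8 CPM in the controls (log2 fold change 1.36, SE 0.096, adjusted p = 4.2e-12). ETV4, a transcription factor downstream of FGF receptors, was 0.53 higher on the log2 scale (adjusted p = 0.000274), and IGFBP2, a binding protein of insulin-like growth factors, fell by 0.83 (adjusted p = 8.99e-06). Of 33 tested genes of FGF, Wnt and IGF signalling 8 rose and 3 fell (33.3% called, against 18.7% of all genes, of which 10.1% were lower). CRTAC1, a secreted cartilage protein, averaged 346 ± 32.7 CPM in slick-oil larvae and 122 ± 19.9 CPM in controls (log2 fold change 1.51), NEIL1, a glycosylase that removes oxidised bases from DNA, 126 ± 14.7 CPM in slick-oil larvae and 44.9 ± 3.57 CPM in controls (log2 fold change 1.48), and PKHD1L1, a very large membrane protein, 417 ± 12.1 CPM in slick-oil larvae and 95.8 ± 16.7 CPM in controls (log2 fold change 2.12). GADD45A, a growth-arrest gene, rose (log2 fold change 1.25, adjusted p = 3.68e-06). CDKN1A, the cell-cycle inhibitor driven by p53, had 0 reads in all 6 libraries. Of 19 tested genes of the p53 and apoptosis list 1 fell and none rose, with library-size scaling 5 rose and none fell, and the background was 18.7%.

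**Figure D2:**
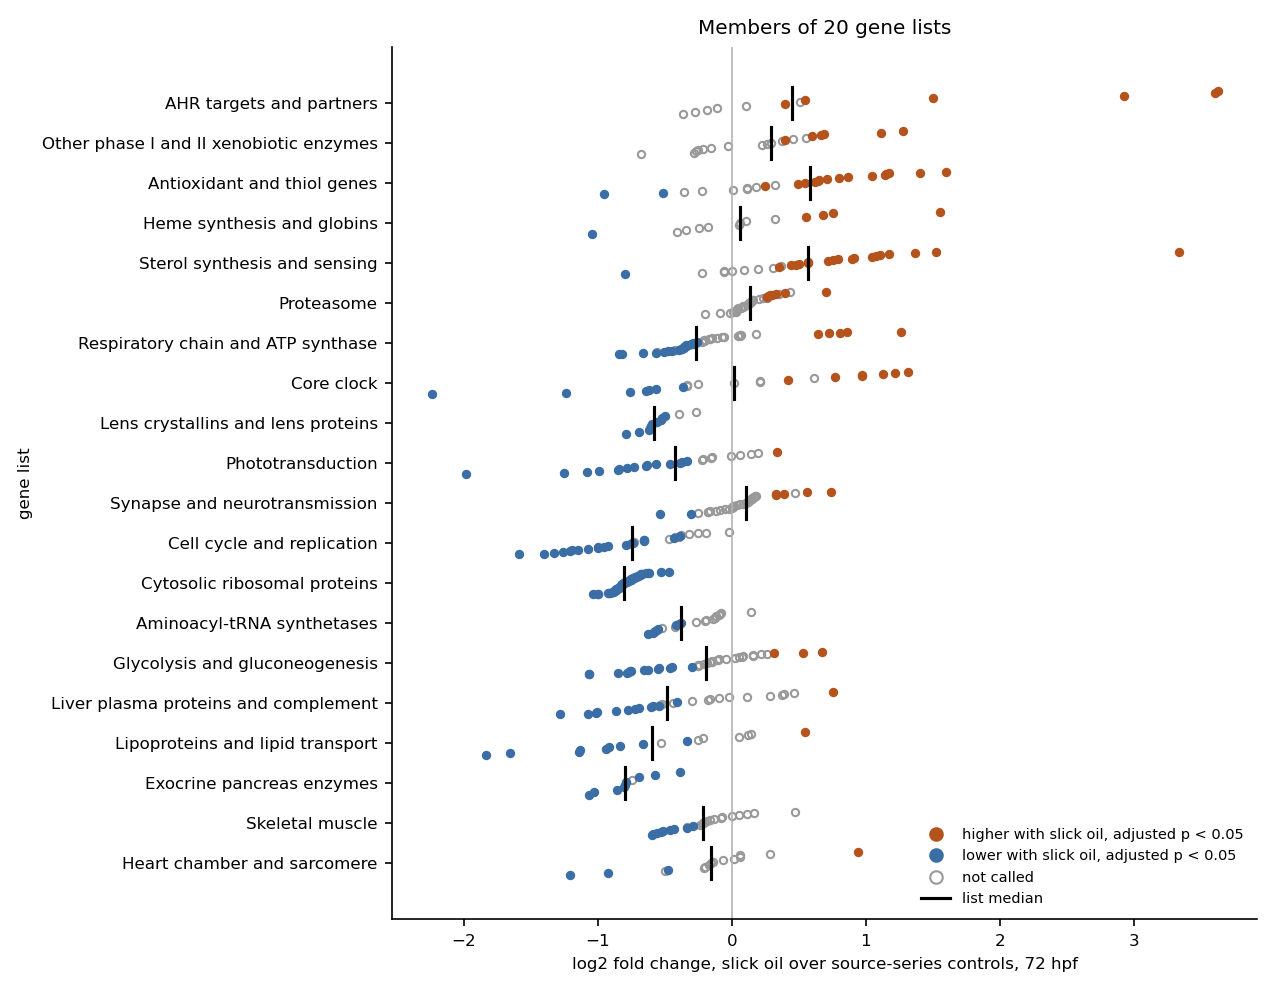
Log2 fold change of slick oil over source-series controls for every tested member of 20 gene lists; filled points are called at an adjusted p under 0.05, open points are not, and the black bar is the list median. All 64 tested ribosomal protein genes lie between -1.04 and -0.472, and the sterol and antioxidant lists lie mostly to the right of 0.

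Photoreceptor genes fell. The cone transducin subunit GNAT2 had 516, 548 and 516 CPM in the slick-oil libraries, against 822, 821 and 972 CPM in the controls (log2 fold change -0.73, SE 0.089, adjusted p = 2.36e-07), and the exposed pools lay well below the lowest control. GNB3, GNGT2 and PDE6G, further parts of the light-signalling cascade, had log2 fold changes of -1.08, -1.25 and -0.85, and PRPH2, a structural protein of the outer segment, -0.84. Of 38 listed phototransduction genes 24 were tested, 15 fell and 1 rose, with a median log2 fold change of -0.422. Not every cone gene took part: cone arrestin, ARR3, was at 325, 327 and 270.4 CPM with slick oil and 334, 334 and 405 CPM in controls and was not called (adjusted p = 0.0972), though it was called without control library 7. In whole larvae fewer cells of a type and less RNA per cell cannot be told apart. The summed level of 6 photoreceptor markers, of which 3 had reads in all 6 libraries, was 906 to 1030 CPM in slick-oil libraries and 1240 to 1630 CPM in controls, and their part in these values was not tested.

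Genes of the pigment epithelium and of eye regulation were mixed. RPE65, the isomerase that regenerates visual pigment, had 78.1, 90.02 and 60.1 CPM in the slick-oil libraries, against 147, 167 and 158 CPM in the controls (log2 fold change -1.05, SE 0.11, adjusted p = 1.09e-08). RGR and the retinol carrier RBP4 fell (log2 fold changes -0.80 and -0.69), and these 3 were the called genes among 16 tested of the visual cycle and retinoid handling, 18.8% against 18.7% of all genes. With the series difference described below subtracted, 2 of that list were higher and 2 lower. Of 16 tested eye transcription factors 3 fell and 2 rose (31.2% called, against 18.7% of all genes), and the subtracted fit called 3 lower and none higher. NEUROD1, a transcription factor of neurons and photoreceptors, had 20.8, 17.2 and 25.3 CPM in the slick-oil libraries, against 56.4, 50.7 and 74 CPM in the controls (log2 fold change -1.52, SE 0.15, adjusted p = 7.02e-09), and RORB, a nuclear receptor of retinal development, averaged 141 ± 13.7 CPM in slick-oil larvae and 280.0 ± 15.6 CPM in controls (log2 fold change -0.99, adjusted p = 7.79e-10). PRDM1 and TBX2, transcription factors of retinal development, were called higher (log2 fold changes 0.63 and 0.30, adjusted p = 0.000634 and 0.0427). The TBX2 call was lost in DESeq2, in limma-voom, with upper-quartile scaling, with a shared spread and with a replicate block. It was also lost without slick-oil library 7 or 8 or any control library.

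Lens genes fell. Of 22 listed lens genes 12 were tested, 10 fell and none rose, and all 12 log2 fold changes lay between -0.791 and -0.27. CRYGN, a gamma-type crystallin, had 1457, 1432 and 1440 CPM in the slick-oil libraries, against 1886, 2562 and 2535 CPM in the controls (log2 fold change -0.69, SE 0.10, adjusted p = 6.61e-06). CRYBA1, CRYBA2, CRYBA4 and CRYBB1, beta crystallins of the lens fibre, had log2 fold changes of -0.53, -0.61, -0.60 and -0.60, and the fibre membrane protein LIM2 -0.56. For each of these genes control library 7 was the lowest control and the exposed pools lay within a narrow band. Crystallins are a multigene family, and how the reads of near-identical copies were divided among symbols is not given in the sources used here. CRYAA had 2 to 4 reads in slick-oil libraries and 2 to 5 in controls and was not tested.

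Clock genes moved in both directions, 7 up and 7 down of 21 tested. NR1D2, a transcriptional repressor of the clock, had 237, 248 and 222 CPM in the slick-oil libraries, against 102, 104 and 98.4 CPM in the controls (log2 fold change 1.22, SE 0.087, adjusted p = 5.15e-12). TEF, a clock-output factor, had 237, 228 and 217 CPM in the slick-oil libraries, against 98.3, 119.9 and 93.3 CPM in the controls (log2 fold change 1.13, SE 0.094, adjusted p = 1.42e-10). The period gene PER3 averaged 149 ± 17.5 CPM in slick-oil larvae and 60 ± 21.1 CPM in controls (log2 fold change 1.32, adjusted p = 2.73e-08), and PER1 82.5 ± 7.33 CPM in slick-oil larvae and 42.5 ± 20.5 CPM in controls (log2 fold change 0.97, adjusted p = 5.78e-05), where control library 8 stood above the other two and the call was lost in DESeq2. NFIL3, which opposes TEF at shared sites, had 4.15, 3.10 and 4.57 CPM in the slick-oil libraries, against 16.6, 16.5 and 23 CPM in the controls (log2 fold change -2.24, SE 0.25, adjusted p = 6.05e-08). ARNTL, the core activator also called BMAL1, had 45.6, 44.1 and 57.7 CPM in the slick-oil libraries, against 76.1, 57.4 and 91.6 CPM in the controls (log2 fold change -0.62, SE 0.13, adjusted p = 0.000968); its highest exposed library overlapped the lowest control. The labels give no hour of the day for sampling, and its part in these values was not tested.

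At 48 hpf slick oil was compared with controls of its own series, and 242 of 9088 genes were called (2.66%), 1.91% higher and 0.748% lower. Of 9397 genes tested for a difference between the ages, 673 were called (7.16%). In this contrast, added after the data had been seen, 11 genes of 169 called at both ages moved the opposite way. Because these genes were picked for opposite calls, their differences between the ages are given as values without a test. NR1D2 was at -0.60 and PER1 at -0.77 on the log2 scale at 48 hpf, against 1.22 and 0.97 at 72 hpf. The differences between ages were 1.80 for NR1D2 and 1.72 for PER1. ZNF395, a zinc-finger gene, behaved likewise, with -0.87 at 48 hpf and 0.94 at 72 hpf (difference 1.79). The ages differ in their control series too, and the controls of the series at 48 hpf differed for ZNF395 by 0.63 (adjusted p = 0.0447) and for PER1 by 0.61 (adjusted p = 0.0206), but for NR1D2 by 0.091 (adjusted p = 0.735).

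**Figure D3:**
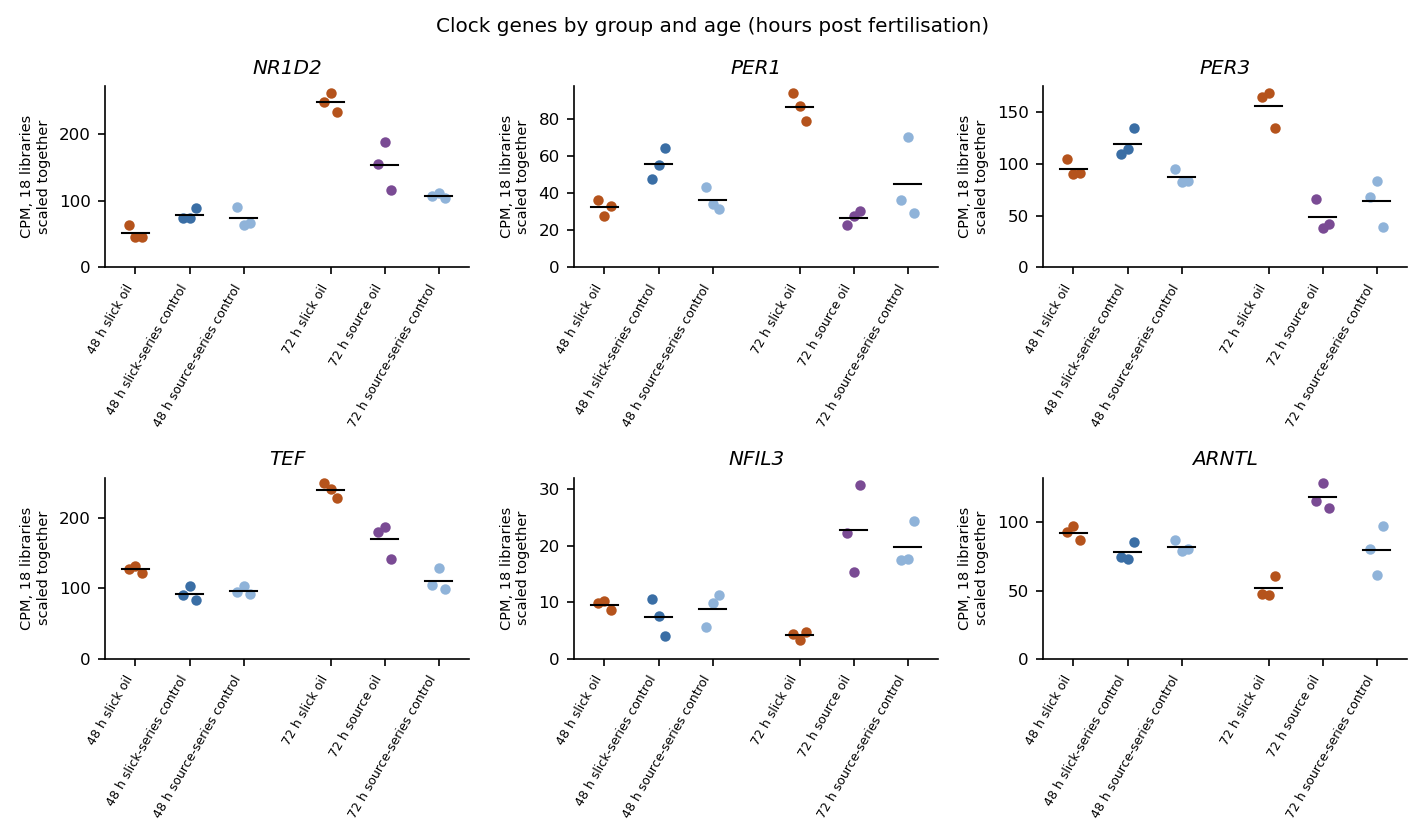
Level of 6 clock genes in each library of 6 groups, in CPM with the 18 libraries scaled together; bars are group means, and groups of 48 hpf stand left of those of 72 hpf. At 72 hpf NR1D2 lies at 233.5 to 261.8 CPM with slick oil against 104.4 to 111.5 CPM in source-series controls, whereas at 48 hpf it lies at 45.3 to 63.6 CPM with slick oil against 74.0 to 88.5 CPM in slick-series controls.

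Cytosolic ribosomal protein genes fell without exception among the 64 tested of 77 listed. Their log2 fold changes ran from -1.04 to -0.472, with a median of -0.804, and all 64 were called lower under 3 other scalings, library size included. RPS20 had 589, 544 and 595 CPM in the slick-oil libraries, against 955, 1135 and 1170 CPM in the controls (log2 fold change -0.92, SE 0.092, adjusted p = 7.02e-09), and RPLP0, of the ribosome stalk, 214, 208 and 214 CPM in the slick-oil libraries, against 358, 410.3 and 387 CPM in the controls (log2 fold change -0.86, SE 0.084, adjusted p = 4.23e-09). RPL3 had 3021, 2946 and 3155 CPM in the slick-oil libraries, against 4472, 5131 and 4423 CPM in the controls (log2 fold change -0.62, SE 0.099, adjusted p = 1.76e-05). Together these genes took 7.76 to 8.27% of the reads of slick-oil libraries and 11 to 12.3% of those of controls. Of 29 tested genes of ribosome assembly 3 fell and none rose (10.3%, against 10.1% lower among all genes), 24 had negative values and the median was -0.272, and with library-size scaling 2 fell and 2 rose. Of 21 tested aminoacyl-tRNA synthetases, which charge tRNAs with amino acids, 9 fell and none rose (median -0.38). The share called was 42.9%, against 18.7% of all genes. KARS was among those that fell (log2 fold change -0.58, adjusted p = 3.19e-06).

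Cell-cycle genes fell. Of 47 listed genes of division and DNA replication 30 were tested, 20 fell and none rose, with a median log2 fold change of -0.741. CDK1, the mitotic kinase, had 22.8, 23.4 and 16.5 CPM in the slick-oil libraries, against 52.5, 36.4 and 50.4 CPM in the controls (log2 fold change -1.15, SE 0.16, adjusted p = 1.55e-06). AURKB, a kinase of chromosome segregation, had 12.1, 15.9 and 11.2 CPM in the slick-oil libraries, against 31, 27.2 and 35.8 CPM in the controls (log2 fold change -1.26, SE 0.18, adjusted p = 2.05e-06), and TYMS, which makes thymidylate for DNA synthesis, 6.57, 11 and 9.49 CPM in the slick-oil libraries, against 23.3, 21.3 and 23.7 CPM in the controls (log2 fold change -1.33, SE 0.20, adjusted p = 7.06e-06). PCNA, the sliding clamp of replication, averaged 15.1 ± 1.04 CPM in slick-oil larvae and 29.1 ± 3.87 CPM in controls (log2 fold change -0.95, adjusted p = 7.93e-05), and TOP2A, RRM1, MCM5 and CCNB1 had log2 fold changes of -0.74, -0.66, -0.65 and -1.19. Apart from RRM1 these genes lay at or under 64.7 CPM in every library.

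Liver and lipid-transport genes were mostly lower. Of 43 listed plasma protein and complement genes 26 were tested, 12 fell and 1 rose (50% called, against 18.7% of all genes). Their median log2 fold change was -0.483. The summed level of 6 liver markers was 275 to 422 CPM in slick-oil libraries and 409 to 518 CPM in controls. Prothrombin, F2, had 63.3, 52.4 and 69.96 CPM in the slick-oil libraries, against 94.1, 155 and 126 CPM in the controls (log2 fold change -1.01, SE 0.13, adjusted p = 5.17e-07), and hemopexin, HPX, which binds free heme, 34.2, 24.8 and 39.4 CPM in the slick-oil libraries, against 57.8, 111 and 72 CPM in the controls (log2 fold change -1.28, SE 0.17, adjusted p = 8.11e-07). FETUB and the fibrinogen chain FGA had log2 fold changes of -1.01 and -0.87. The protease HABP2, which acts in coagulation, had 25.6, 26.2 and 17.9 CPM in the slick-oil libraries, against 61, 89.7 and 66.6 CPM in the controls (log2 fold change -1.63, SE 0.15, adjusted p = 1.15e-09). Among 16 tested genes of lipoproteins and lipid transport 9 fell and 1 rose (62.5% called, median -0.596). APOA4, an apolipoprotein of the gut, had 27.3, 23.8 and 39.7 CPM in the slick-oil libraries, against 90.9, 133 and 101 CPM in the controls (log2 fold change -1.84, SE 0.14, adjusted p = 4.67e-11), APOB, the structural protein of large lipoproteins, 111, 129 and 127 CPM in the slick-oil libraries, against 206, 346 and 251 CPM in the controls (log2 fold change -1.13, SE 0.12, adjusted p = 2.06e-08), and MOGAT2 and DGAT2, which build triglycerides, fell by 0.94 and 0.92 (adjusted p = 7.77e-08 and 1.15e-07). Control library 8 was the highest control for F2, HPX, HABP2, APOA4 and APOB, and none of these calls was lost without it.

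Carbohydrate and one-carbon metabolism had members that changed in both directions. G6PC, which releases glucose from the liver, averaged 176 ± 13.2 CPM in slick-oil larvae and 369 ± 42.8 CPM in controls (log2 fold change -1.07, adjusted p = 3.83e-10). In total 14 of 38 tested genes of glycolysis and gluconeogenesis fell and 3 rose (44.7% called, against 18.7% of all genes). With library-size scaling 13 fell and 7 rose. LDHA was not called (0.22, adjusted p = 0.109). BHMT, a methyltransferase that recycles homocysteine, averaged 2797 ± 51.5 CPM in slick-oil larvae and 5696 ± 575 CPM in controls (log2 fold change -1.03, adjusted p = 5.45e-09). Of 41 tested genes of amino acid breakdown and one-carbon metabolism 13 fell and 5 rose (43.9% called), and with library-size scaling 7 fell and 11 rose. With the series difference subtracted 3 of that list were lower and 4 higher, and 7 were lower in unexposed slick-series than in unexposed source-series larvae at 48 hpf.

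The digestive proteases of the exocrine pancreas were lower in slick-oil libraries and also differed between unexposed larvae of the series. Of 28 listed genes 10 were tested, 9 fell, and the median log2 fold change was -0.795. Chymotrypsinogen, CTRB1, had 6680, 6478 and 6635 CPM in the slick-oil libraries, against 9052, 14700 and 10660 CPM in the controls (log2 fold change -0.80, SE 0.13, adjusted p = 1.92e-05), and trypsinogen, PRSS1, 16440, 12880 and 15370 CPM in the slick-oil libraries, against 21620, 32630 and 26570 CPM in the controls (log2 fold change -0.85, SE 0.13, adjusted p = 1.32e-05). Between the unexposed controls of 48 hpf, slick series over source series, 405 of 9097 genes were called (4.45%), 2.04% higher and 2.41% lower, a count that ran from 97 without source-series control library 6 to 1206 without source-series control library 4. There, unexposed slick-series larvae had 9 of these genes called lower than unexposed source-series larvae, with a median log2 difference of -1.14. With that difference subtracted in one fit, the median at 72 hpf became 0.319, and none of the 10 was called in either direction. CTRB1, PRSS1, CELA1, AMY2B and CPA1 had log2 fold changes of -0.80, -0.85, -1.03, -0.80 and -0.57 before subtraction and of 0.28, 0.26, 0.44, 0.36 and 0.096 after it. In this gene group, as in every other of the comparison, oil and series cannot be told apart.

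**Figure D4:**
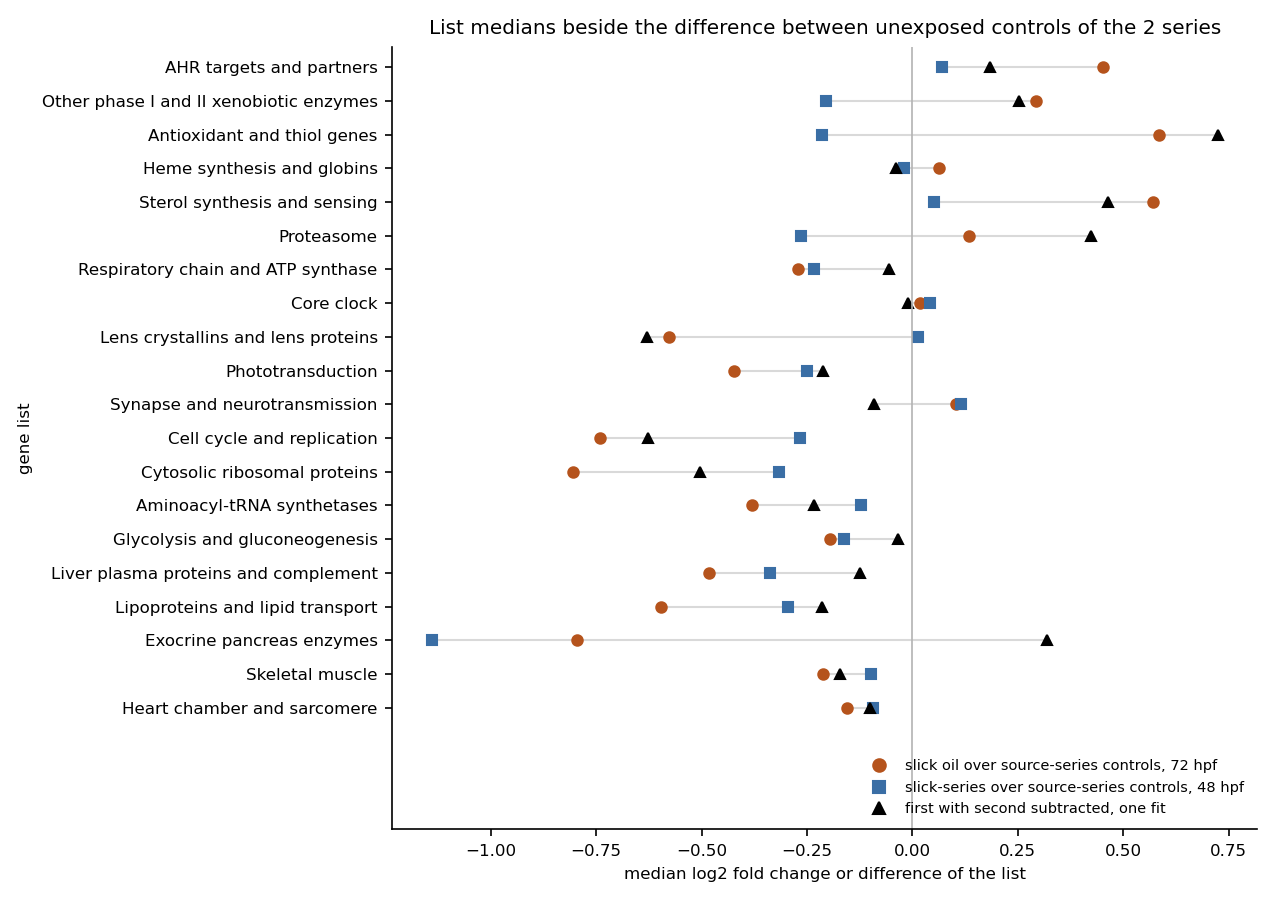
Median log2 values of 20 gene lists: circles are slick oil over source-series controls at 72 hpf, squares the slick-series over the source-series controls at 48 hpf, and triangles the first with the second subtracted in one fit. The lens median is -0.577, 0.0137 and -0.63 in these 3, whereas the exocrine pancreas median is -0.795, -1.14 and 0.319.

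The same subtraction gives a value for every group above, and it holds for the oil only if the series differed at 72 hpf as they did at 48 hpf. With the control difference of 48 hpf subtracted, 465 of 9395 genes were called at 72 hpf (4.95%), 243 higher (2.59%) and 222 lower (2.36%); the fit rests on 12 libraries and a difference of differences, so its errors are wider. With library-size scaling this fit called 448 higher and 78 lower. CYP1A1 (4.35), CYP1B1 (3.79), AHRR (2.63), FOXQ1 (1.44) and FGF7 (3.38) kept their calls in it, with the subtracted log2 differences given in brackets, and AHR did not (0.065). Of the antioxidant list 13 genes were called higher and 2 lower in the subtracted fit, of the lens list 9 lower, and of the ribosomal proteins 54 lower. SDHB, SDHA, NDUFV1, CYC1 and CYCS were all called higher in it, but none of the respiratory chain list was called lower, and 9 of that list were lower between the unexposed control series. The sterol list had 6 genes called higher, the phototransduction list 7 lower and 1 higher, and the cell-cycle list 7 lower. Of the liver list 4 were lower and none higher (median -0.124), and of the lipid-transport list 1 and none (median -0.215). Between the unexposed control series 4 liver genes were lower, and 5 lipid-transport genes were lower and 2 higher. The glycolysis list had 7 lower and 1 higher, and the aminoacyl-tRNA synthetases 3 lower. RPE65 (-0.90), RORB (-0.85), UCP1 (-2.29), NR1D2 (1.10), TEF (1.19), NFIL3 (-2.02), CDK1 (-1.14), F2 (-0.88), APOB (-0.87) and G6PC (-1.54) were still called.

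Of 106 named genes called at 72 hpf, 36 were not called in the subtracted fit. Among them were PER1 (0.34), ARNTL (-0.55), ZNF395 (0.30), RGR (-0.38), PDE6G (-0.31), GRK7 (0.29), PRDM1 (0.38), TBX2 (0.094), SQLE (2.78), LSS (0.51), HBE1 (-0.68), FGA (-0.57), IGFBP2 (-0.21), KARS (-0.30), PTGS2 (0.44), PCNA (-0.61), MCM5 (-0.34), CCNB1 (-0.89) and RRM1 (-0.36). OVGP1, a chitinase-family gene, showed the largest fall among the named genes, with 654, 545 and 860.3 CPM in the slick-oil libraries, against 2646, 3909 and 3307 CPM in the controls (log2 fold change -2.26, SE 0.13, adjusted p = 4.85e-14). Its control-series difference at 48 hpf was -1.48 (adjusted p = 0.0529), and the subtracted value was -0.81 (adjusted p = 0.453). With 18 libraries scaled together, OVGP1 had 9.57, 26.7 and 22.4 CPM in slick-series controls of 48 hpf (libraries 4, 5 and 6). The source-series controls of 48 hpf had 110, 24.7 and 26.2 CPM, so the difference rested on the libraries numbered 4. Levels at 48 hpf were far under the 2797 to 4175 CPM of the 72 hpf controls on that scale. APOA4 (-0.66, adjusted p = 0.21), MOGAT2 (0.13, adjusted p = 0.821) and DGAT2 (0.022, adjusted p = 0.973) lost their calls in the subtracted fit. Lactotransferrin, LTF, fell by 1.27 at 72 hpf and differed by -1.34 between the control series. The lactase gene LCT went the other way: it rose by 0.70 (adjusted p = 3.97e-07) although the control series differed by -1.61, which gives 2.29 (adjusted p = 5.55e-08) when subtracted. PKHD1L1 had a subtracted value of 1.03 (adjusted p = 0.000462), and the control series differed by 1.07.

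Genes known for very long transcripts moved together as well. Of 80 such genes, picked after the values had been seen, 64 were tested, 30 rose and 1 fell with slick oil, and the median log2 fold change was 0.308. Between the unexposed control series at 48 hpf the median was 0.344, with 21 higher and none lower, and the subtracted median was -0.0621. At 48 hpf, within the slick series, the median was -0.0973. These genes took 1.48 to 1.67% of the reads of slick-oil libraries and 0.979 to 1.21% of those of controls, at 48 hpf 1.40 to 1.56% in slick-series and 1.02 to 1.31% in source-series controls. The calcium channel genes CACNA1A and CACNA1B (log2 fold changes 0.69 and 0.76, subtracted -0.047 and 0.14), the ryanodine receptor RYR2 (0.35, subtracted 0.11) and FREM2 (0.96, subtracted 0.46) belong here. So do PKHD1L1 (2.12, subtracted 1.03) and APOB (-1.13), the 1 that fell. The RYR2 call was lost without slick-oil library 7 or 8 or control library 9. Transcript lengths are not in the files, and the part of RNA quality or library preparation in these values was not tested.

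Some heart and muscle genes fell. Of 15 tested genes of the heart chambers and sarcomere 3 fell and 1 rose (26.7% called, against 18.7% of all genes), and with library-size scaling 2 fell and 3 rose. The 1 that rose had the highest log2 fold change of the list (0.943) and belongs to the very long transcripts above. The summed level of 6 heart markers was 4260 to 4690 CPM in slick-oil libraries and 3410 to 4570 CPM in controls. Only 3 of them, MYH7, MYL7 and TNNT2, had reads in all 6 libraries, and the others were at 0. MYL7 and TNNT2 reached at most 30.5 and 21.3 CPM in any library, so the sum was nearly all MYH7. It therefore does not show whether the heart markers as a set held their level. MYL7, a myosin light chain of the heart, had 7.95, 11.4 and 16.2 CPM in the slick-oil libraries, against 22.6, 30.5 and 29.1 CPM in the controls (log2 fold change -1.21, SE 0.20, adjusted p = 3.26e-05). TNNT2, cardiac troponin T, had 10.7, 12.1 and 9.84 CPM in the slick-oil libraries, against 19.7, 21.3 and 21 CPM in the controls (log2 fold change -0.92, SE 0.19, adjusted p = 0.000465). With the series difference subtracted neither MYL7 nor TNNT2 was called (-0.53 and -0.86). The calcium pump ATP2A2 and the potassium channel KCNH2 were not called (log2 fold changes 0.056 and 0.18), and NPPA and NPPB had 0 reads in all 6 libraries. Of 25 tested skeletal muscle genes 9 fell and none rose (36% called, against 18.7% of all genes). With library-size scaling 4 fell and 1 rose, and in the subtracted fit 2 were lower and 1 higher. The summed level of 6 skeletal muscle markers overlapped, at 32500 to 33600 CPM in slick-oil libraries and 32000 to 37500 CPM in controls. Of 37 tested genes of the synapse 5 rose and 2 fell (18.9% called, against 18.7% of all genes). With library-size scaling 20 rose and none fell, and in the subtracted fit none was called. The cartilage collagen COL2A1 was not called (-0.12, adjusted p = 0.524). Among 37 proteasome genes 7 rose and none fell (18.9%, against 18.7% of all genes called and 8.55% called higher). PSMD1 rose most (log2 fold change 0.70, adjusted p = 3.54e-07). The count was 2 without slick-oil library 9 or without control library 8 and 22 with library-size scaling. At 48 hpf slick oil had 17 of the list called higher.

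Source oil at 72 hpf was compared with the same 3 control libraries, and 1832 of 8980 genes were called (20.4%), 11.4% higher and 9.03% lower. Because the controls are shared, values of both oils are only set side by side. For CYP1A1 the log2 fold change was 3.63 with slick oil and 3.6 with source oil, for AHRR 2.93 and 2.95, and for FGF7 2.84 and 2.72. Tested directly, slick-oil over source-oil libraries, these 3 genes had log2 differences of 0.041, -0.0077 and 0.14 and were not called, nor was any other gene of the receptor list. The labelled concentrations of the oils are 2.50% and 0.27%, and series and oil differ together here too. Of 8941 genes tested between the oils, 1561 were called (17.5%), 681 higher (7.62%) and 880 lower (9.84%) with slick oil. With library-size scaling 1859 were higher and 452 lower, so the balance of directions between the oils turned with the scaling.

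Between the oils, genes of acute response were lower with slick oil. Of 22 immediate early genes, switched on within minutes of a stimulus, 16 were lower and 1 higher, and of 20 genes of inflammation 11 were lower and none higher. Against the shared controls, source oil had 16 immediate early genes higher and none lower (median 0.578), and slick oil 3 and none (median 0.122). For inflammation source oil had 13 higher and 2 lower (median 0.76), and slick oil 4 and 2 (median 0.12). PTGS2, the inducible cyclooxygenase, had a log2 difference of -2.14 between slick and source oil (adjusted p = 2e-08). Against controls it had 108, 119.7 and 248 CPM in the slick-oil libraries, against 117, 58.1 and 65.9 CPM in the controls, and its log2 fold change of 0.98 was 0.501 without slick-oil library 9, while library 7 lay below the highest control. Its call against controls was lost in DESeq2. MMP9, a matrix protease of inflamed tissue, had a log2 difference of -3.36 (adjusted p = 3.06e-08), the repressor BCL6 one of -1.45 (adjusted p = 6.39e-10) and the neuronal activity gene NPAS4 one of -2.46 (adjusted p = 8.05e-11). Against controls MMP9, BCL6 and NPAS4 were not called with slick oil (log2 fold changes -0.37, 0.31 and 0.60). MMP9 had 16.9 CPM in slick-oil library 9 and 0.692 and 1.38 CPM in the other two, and without library 9 it was called lower than in controls (-2.92). For catalase the log2 difference between the oils was -1.17 (adjusted p = 6.39e-10).

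Phototransduction, lens and synapse genes were higher with slick than with source oil. Of the 24 phototransduction genes tested at 72 hpf 12 were higher and none lower, of 12 lens genes 9 and none, and of 37 synapse genes 25 and none. Among all genes 7.62% were higher and 9.84% lower. Against the shared controls, source oil had 22, 11 and 17 genes of these lists lower and none higher (medians -0.89, -0.945 and -0.318). Slick oil had 15, 10 and 2 lower, and 1, 0 and 5 higher. Of the visual cycle list 4 were higher and 3 lower, and of the eye transcription factors 3 and 3, with NEUROD1 at -1.10 and RORB at -0.63 (adjusted p = 3.22e-06 and 9.77e-05). ARR3 was 1.06 higher (adjusted p = 9.34e-09), and GRK7, the cone pigment kinase, 0.83 higher (adjusted p = 3.14e-07). Against the shared controls, GRK7 was at -0.38 with slick oil and -1.20 with source oil, and ARR3 at -0.22 and -1.26. The period genes PER1 and PER3 were 1.70 and 1.71 higher with slick oil, and ARNTL had a log2 difference of -1.18. Both period genes were also higher in unexposed slick-series than source-series larvae at 48 hpf, by 0.61 and 0.45 (adjusted p = 0.0206 and 0.0185). Lower with slick than with source oil were 10 exocrine pancreas genes and 61 ribosomal protein genes, and both lists differed in the same direction between the unexposed control series at 48 hpf (9 and 33 genes lower).

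**Figure D5:**
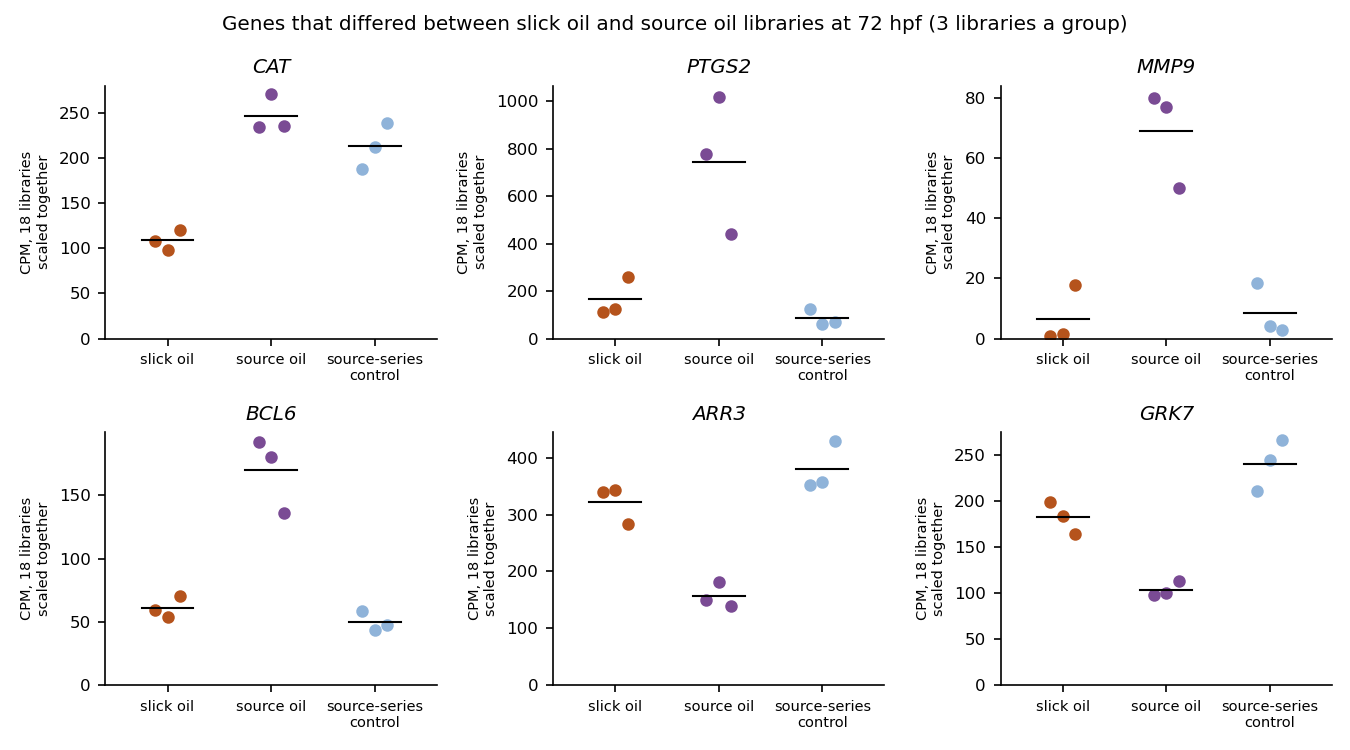
Level of 6 genes in each library of 3 groups at 72 hpf, in CPM with 18 libraries scaled together; bars are group means. For CAT the slick-oil libraries lie at 97.8 to 120.3 CPM, below source oil (234.6 to 271 CPM) and controls (188 to 239 CPM), while for BCL6 and ARR3 the source-oil libraries stand apart.

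The early response at 48 hpf, against controls of the slick series, gave CYP1A1 a log2 fold change of 3.57, AHRR 1.60, FGF7 2.33, PRDX1 1.04, FECH 1.13, MSMO1 1.33 and SDHB 1.07, all called. These libraries and those of the 72 hpf comparison have none in common. The count of called genes at that age ran from 102 without slick-oil library 5 to 940 without slick-oil library 4. The lists named next had 24 antioxidant, 64 ribosomal protein, 12 lens, 24 phototransduction and 27 sterol genes tested at 72 hpf. Among all genes at 48 hpf 1.91% were higher and 0.748% lower. Of the antioxidant list 12 genes were higher and none lower, no ribosomal protein gene was called in either direction, and 1 lens gene was lower. Of the phototransduction list 9 were lower and none higher (median log2 fold change -0.685), and of the sterol list 6 were higher and none lower. CDK1 and TYMS stood at 0.07 and -0.086 and were not called.

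The authors' deposited table for the 6 libraries holds 968 genes past an adjusted p of 0.05, 415 higher and 553 lower. Here 962 of those genes passed as well, with 962 of the same sign.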

How the data were processed

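Read counts per symbol are raw counts as deposited and were not scaled beforehand. The deposited log2 fold changes and adjusted p-values are the authors' own comparison, per the file headers, and only their count of calls is given. The submitters' processing notes list HTSeq, DESeq2 and hg19 with no role for any of them; the aligner, and what fish reads were matched to, is not given in the sources used here. Some named genes are not reported here. No fish genome, gene position or sequence was used.

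Groups came from the sample labels and columns were matched by library name. Of 37 library columns, 16 were not used; 3 identical columns in a second table were used once, and the second row of 8 duplicated symbols was left out. Each comparison was fitted on its own libraries by edgeR 4.0.16 (R 4.3.3), using TMM scaling, filterByExpr, quasi-likelihood F test, Benjamini-Hochberg adjustment over all genes tested, call at 0.05. The SE is the log2 fold change divided by the root of F. Totals of 2675935 to 3139105 reads mean that genes under a few CPM rest on few reads. The procedure was tested on simulated data.

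Genes named are the 10 largest called rises and falls of well-measured genes, up to 5 called genes of each list, a set of genes of interest, and those that differ most between oils or between control series. The list of very long transcripts and the contrast between ages were chosen after seeing the data. The comparison, the lists and the genes of interest were chosen with earlier results of these data known. Alternatives were DESeq2 1.42.0, limma-voom (limma 3.58.1), other scalings and filters, a shared spread, a replicate block, each library left out, and the 48 hpf series difference subtracted.

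Library numbers 7, 8 and 9 recur in both groups. Deviations from the group means correlated at -0.0777, 0.00814 and 0.0157 between same-numbered libraries, so they were not treated as pairs.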

Additional observations from a re-analysis of the deposited data

Results flagged for a closer look

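The fold change of slick oil differed in sign between 72 hpf, against source-series controls, and 48 hpf, against slick-series controls, for 11 genes called at both ages. The difference, 72 minus 48 hpf on the log2 scale, comes from one edgeR fit over both ages. It passed an adjusted p of 0.05 for each, which the choice of genes called with opposite signs nearly fixes, so it is given as a value only. It was 1.80 for NR1D2, 1.79 for ZNF395, 1.72 for PER1, 1.64 for CYP26A1 (an enzyme that breaks down retinoic acid), 1.05 for TRPM3, 0.921 for SLC4A5, 0.804 for UNC119 (a photoreceptor trafficking protein) and 0.793 for CACNA1H, all higher with slick oil at 72 hpf and lower at 48 hpf. It was -2.35 for LTF, -1.50 for UROC1 (an enzyme of histidine breakdown) and -0.804 for CTSZ (a lysosomal protease), which were lower at 72 hpf and higher at 48 hpf. The control series differ between the ages too, and between the unexposed controls of 48 hpf the series difference was called for ZNF395, LTF, PER1, UROC1 and CACNA1H.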

How the results depend on the processing

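The 1673 calls became 2842 with library-size scaling, 970 in DESeq2, 984 at an adjusted p under 0.01 and 465 with the series difference of 48 hpf subtracted. With library-size scaling 83.4% of calls were higher with slick oil, against 45.8% with TMM, and the median of all genes moved to 0.207. Other scalings and filters, limma-voom and a shared spread gave 1480 to 1672 calls. Leaving out 1 library gave 1130 to 1701 calls. With library numbers as a replicate block there were 1627 calls, and 1 named gene, TBX2, lost its call (log2 fold change 0.291). Same-numbered libraries did not deviate together (correlations -0.0777 to 0.0157). With 1 library left out, calls ranged from 97 to 1206 for the series difference of 48 hpf, from 102 to 940 for slick oil at 48 hpf, from 1306 to 1832 for source oil, from 1053 to 1660 between the oils and from 315 to 453 for the subtracted fit. DESeq2 gave 1203 calls for source oil and 965 between the oils.

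When the series difference was subtracted, 36 of the 106 called named genes lost their call and 15 of 114 named genes changed sign, and the cause was not tested. The log2 values of those 15 were 0.442 for CELA1, 0.362 for AMY2B, 0.257 for PRSS1, 0.275 for CTRB1, 0.0962 for CPA1, 0.135 for MOGAT2, 0.022 for DGAT2, 0.289 for GRK7, 0.194 for ARR3, -0.212 for BCL6, -0.265 for KCNH2, 0.296 for MMP9, -0.0189 for ATP2A2, 0.0524 for LTF and -0.0474 for CACNA1A. COL2A1 turned with library-size scaling (0.0801) and without slick-oil library 9 (0.00171), its lowest being -0.24 without control library 9. MMP9 turned without slick-oil library 7 (0.161) or 8 (0.106) and was -2.92 without library 9, and ATP2A2 ran from -0.0748 without control library 9 to 0.163 without control library 7. Genes under a few CPM, SQLE and MMP9 among them, are limited by depth.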
